A study of Mus musculus with 3 samples.

Results

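Fibroblasts of the aorta were compared between an APOE4 library and an APOE2 library of mice fed a Western diet. A cell was taken as a fibroblast when Dcn (decorin, a proteoglycan of collagen-rich matrix) made up at least 0.5% of its transcripts, when the smooth muscle genes Acta2 and Tagln together stayed under 1%, and when the macrophage genes C1qa, C1qb and C1qc together gave fewer than 3 transcripts, among cells with at least 200 detected genes, at least 2000 transcripts and under 20% mitochondrial transcripts. The rule kept 968 of 7835 cells in APOE4, which is 12.4% (95% interval 11.6 to 13.1, Clopper-Pearson), and 1236 of 10815 cells in APOE2, which is 11.4% (10.8 to 12.0). Both together are 2204 cells of the 18650 that passed the filters in these libraries, and of 28506 cell barcodes in the whole series. The APOE3 library, which gave 640 fibroblasts by the same rule, is shown as a further value and not as a control.

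Each library was made from the whole aorta, from the arch to the iliac bifurcation, of male gene replacement mice in which human APOE2, APOE3 or APOE4 stands at the place of mouse Apoe, on a C57BL/6J background. The APOE2 library pooled 6 mice, the APOE3 library 5 and the APOE4 library 7. All of the mice, in every group, ate the Western diet with 42% fat and 0.2% cholesterol for 16 weeks from 12 weeks of age, so there was no group on another diet. There was 1 library for each genotype, the barcodes do not tell the mice of a pool apart, and a difference between the libraries therefore cannot be set against a spread between replicates. No test was made and no p-value is given.

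Fibroblasts of the arterial adventitia, the outer coat of the vessel, make and renew fibrillar collagen, proteoglycans and elastic fibre proteins, and they are known as a source of chemokines, complement and acute phase proteins when the vessel wall is inflamed. Apolipoprotein E carries cholesterol-rich lipoproteins to receptors on cells. Its APOE2 form binds poorly to some of them, which leaves remnant lipoproteins in plasma, and its APOE4 form prefers larger lipoprotein particles.

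The unit throughout is CPM, the number of unique molecular identifiers (UMIs, 1 for each captured transcript) of a gene in the fibroblasts of a library, divided by the total of those cells and scaled to 1000000. The APOE2 sum rested on 14874095 UMIs, the APOE3 sum on 7163162 and the APOE4 sum on 9379866, and a cell had 9990.5, 10638 and 8980 UMIs at the median. A difference is the log2 ratio of the CPM in APOE4 to that in APOE2, so 1 stands for 2-fold higher in APOE4 and -1 for 2-fold lower. Every interval is a 95% interval for the counting error alone, and none covers differences between mice, dissections or library preparations. Intervals of CPM and of ratios also leave out the uneven spread of a gene's UMIs over cells.

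The 10 fibroblast markers, among them Pdgfra, Col1a1 and Lum, summed to 16597 CPM in APOE2 and 20153 CPM in APOE4, against 2100.3 and 2177 CPM in smooth muscle cells of the same libraries, and all 10 were detected, so the label matched its markers. Few cells lay close to the Dcn limit. Between 0.5% and 0.6% there were 46 cells in APOE2 and 9 in APOE4, and between 0.4% and 0.5%, just outside, 35 and 11. The APOE2 and APOE4 libraries shared 30 cell barcodes, none of them fibroblasts in both. Reads assigned to mouse Apoe gave 246 CPM in APOE2, 543 in APOE3 and 352 in APOE4. The files hold no human APOE entry, so these counts do not check the genotype.

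Transcripts of other cell types were present in both sums and were not equal between them. The 10 neutrophil markers summed to 420.3 CPM in APOE2 and 5.33 in APOE4, with 1 marker at 0 in APOE2 and 3 in APOE4. Most of it was Lcn2, which fibroblasts can also make, but the other neutrophil markers together were also higher in APOE2. The 10 mesothelial markers summed to 61.3 and 2.35 CPM, with none at 0 in APOE2 and 5 at 0 in APOE4, the defining gene Msln among them. In APOE2 the mesothelial signal lay in few cells, 9 of which held 3 or more such UMIs. The 9 erythroid markers in the files summed to 1452 and 527 CPM, the T cell markers to 3.50 and 41.2, the B cell markers to 1.61 and 17.1, the endothelial markers to 91.7 and 68.3, and the adipocyte markers to 17.2 and 10.7. Smooth muscle markers, at 519.8 and 456 CPM, pericyte markers, at 519 and 589, Schwann cell markers, at 41.4 and 48.0, and macrophage markers, at 13.2 and 12.8, differed less. Cells with 3 or more UMIs from the macrophage, T cell, B cell, neutrophil, erythroid, endothelial, Schwann and mesothelial lists numbered 377 in APOE2 and 244 in APOE4 (272 and 242 when Lcn2 was not counted as a marker). Values without them are given beside the named genes that came under 2-fold or changed sign without them. List medians near 0 could also change sign. Lcn2 was one of the markers used to leave out these cells and was itself far higher in APOE2. Leaving them out therefore partly selected on the difference compared, and ratios that shrank without them partly follow from that choice.

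Genes were compared with at least 10 CPM in 1 of the libraries and at least 50 UMIs in both together. Of 9063 such genes, 94 were at least 2-fold higher in APOE4 (1.04%) and 206 at least 2-fold lower (2.27%). The median log2 ratio was -0.07, with 3735 genes above 0 and 5328 below 0. These shares stand beside the counts of list members given below. A gene could pass the 10 CPM limit through 1 library alone, in the lists as among all genes. Counts past 2-fold partly follow from that limit, also in lists where this is not repeated. Without the cells that held other types' markers the counts were 101 higher and 116 lower, or 91 and 133 when Lcn2 was not counted as a marker. The lower genes reached far larger ratios than the higher ones, as the scatter plot of the 2 libraries shows. Saa3, Spp1 and Eif3j2 had the lowest ratios of the 12 named lower genes, and Pde4c and Nup210l were among the highest of the named higher genes. Without the 5% of cells highest for each gene, 111 genes were higher and 198 lower, of which 59 and 86 were among the 94 and 206. Genes found in few cells, such as Saa3, kept no UMIs there and could not be compared.

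**Figure D1:**
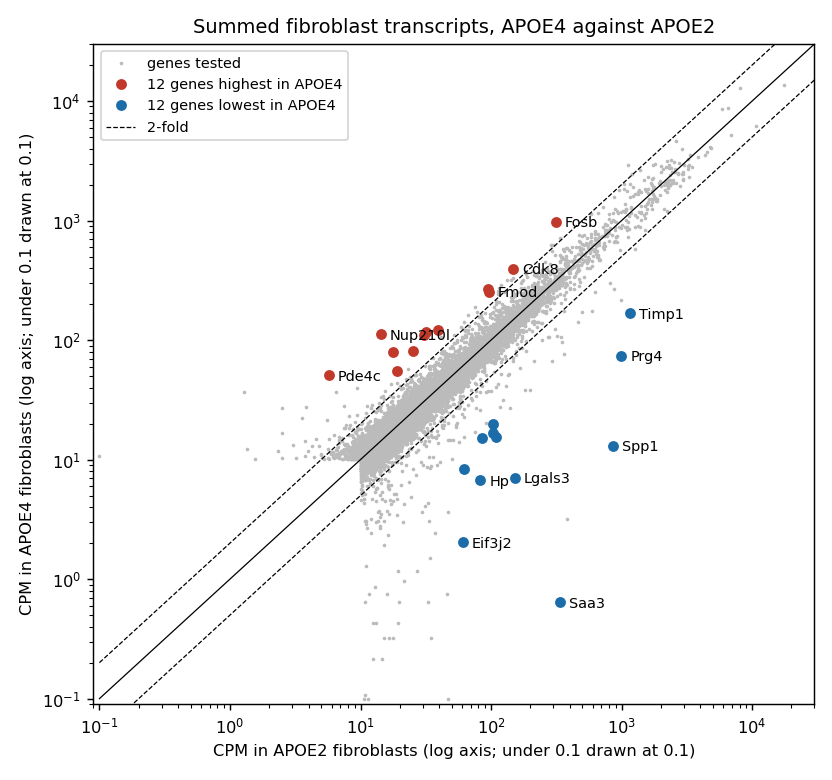
Each point is a gene, placed by its CPM in APOE2 fibroblasts (horizontal, log axis) and in APOE4 fibroblasts (vertical, log axis), with red and blue for the 12 genes with the highest and lowest ratio among those at 50 CPM or more. Saa3 lies furthest below the diagonal, at 339 CPM in APOE2 and 0.640 in APOE4, while the red points lie within 8.84-fold of it.

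Most of the acute phase and antimicrobial genes that could be compared were lower in APOE4. These are secreted proteins that many cells make under inflammatory cytokines. Of 11 listed, 6 could be compared, and their median log2 ratio was -3.69, beside -0.07 over all genes. At least 2-fold lower in APOE4 were 5, beside 2.27% of all genes, and none was 2-fold higher. These 5 were Saa3, Lcn2, Hp, Ptx3 and Prg4, a lubricant gene that the list also held. The list was written with earlier results of these data known, so its count and median are no independent evidence. Saa3, Lcn2, Hp and Ptx3 passed the 10 CPM limit in APOE2 but not in APOE4, so this count partly follows from that limit. Slpi, which was not lower, did not reach the limit. Saa3 (chr7:46711998-46715700, mm10), a serum amyloid A protein made outside the liver, had 339 CPM in APOE2, 0.279 in APOE3 and 0.640 in APOE4, a log2 ratio of -9.05 (95% interval -10.49 to -7.92). Lcn2 (lipocalin 2, which takes iron from bacteria) had 382 CPM in APOE2, 2.09 in APOE3 and 3.20 in APOE4, a log2 ratio of -6.90 (95% interval -7.47 to -6.38). Hp (haptoglobin, which binds free haemoglobin) had 83.0 CPM in APOE2, 15.4 in APOE3 and 6.72 in APOE4, a log2 ratio of -3.63 (95% interval -4.02 to -3.26). APOE2 stood apart for all of these, and APOE3 and APOE4 were both low.

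Prg4 (lubricin, a boundary lubricant of joints and serosal surfaces; chr1:150449412-150466165) had 995 CPM in APOE2, 32.2 in APOE3 and 73.7 in APOE4, a log2 ratio of -3.76 (95% interval -3.87 to -3.65). Ptx3 (pentraxin 3, a soluble pattern receptor) had 17.0 CPM in APOE2, 4.75 in APOE3 and 6.08 in APOE4, a log2 ratio of -1.48 (95% interval -1.93 to -1.07), which was -0.34 without cells that held other types' markers. The exception was Cp (ceruloplasmin, a copper oxidase), with 258 CPM in APOE2, 219.9 in APOE3 and 261 in APOE4. Saa1 and Saa2, close relatives of Saa3 whose reads could be split between copies, did not reach the level for comparison, and Saa1 had 5.18 CPM in APOE2 and 0.107 in APOE4. Saa3, Hp and Prg4 were also lower in APOE4 smooth muscle cells, at levels under 10 CPM, and Lcn2 had 19.7 CPM there in APOE2 and 0.00985 in APOE4.

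The bases upstream of the acute phase genes are shown because most of those compared differed in the same direction. The 250 bases before the annotated start were searched on both strands for the C/EBP octamer TTGCNNAA, the AP-1 heptamer TGANTCA, the cyclic AMP response element TGACGTCA, the serum response factor (CArG) box and the NF-kB decamer. Windows from the RefSeq table (GRCm38.p6) were searched for 7 of the 11 listed acute phase genes. All 7 held the C/EBP octamer in at least 1 window, namely Cp, Lcn2, Ptx3, Saa1, Saa2, Saa3 and Slpi. It was held by 9.56% of the 32851 windows searched over all genes. However, Cp was level between the libraries, and Slpi (2.89 CPM in APOE2 and 6.50 in APOE4) was not lower. The complement gene C3 held it too. Matches are in capitals below, and they describe the letters only, not binding.
Saa3, chr7:46715677-46715926 on the minus strand: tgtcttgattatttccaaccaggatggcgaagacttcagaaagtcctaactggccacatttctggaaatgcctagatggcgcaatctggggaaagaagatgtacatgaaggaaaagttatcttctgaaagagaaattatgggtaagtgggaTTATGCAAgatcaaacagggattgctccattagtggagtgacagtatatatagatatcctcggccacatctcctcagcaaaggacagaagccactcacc
Lcn2, chr2:32387740-32387989 on the minus strand: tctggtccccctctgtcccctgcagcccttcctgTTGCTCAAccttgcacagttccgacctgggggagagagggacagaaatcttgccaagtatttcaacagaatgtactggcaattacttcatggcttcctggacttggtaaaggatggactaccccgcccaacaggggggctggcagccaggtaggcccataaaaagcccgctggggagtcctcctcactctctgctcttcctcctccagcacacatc
Ptx3, chr3:66219637-66219886 on the plus strand: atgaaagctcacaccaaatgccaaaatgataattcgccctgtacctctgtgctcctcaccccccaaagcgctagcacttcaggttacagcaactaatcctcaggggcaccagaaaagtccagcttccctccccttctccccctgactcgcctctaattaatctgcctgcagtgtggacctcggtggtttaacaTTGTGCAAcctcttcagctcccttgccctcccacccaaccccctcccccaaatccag
C3, chr17:57228137-57228386 on the minus strand: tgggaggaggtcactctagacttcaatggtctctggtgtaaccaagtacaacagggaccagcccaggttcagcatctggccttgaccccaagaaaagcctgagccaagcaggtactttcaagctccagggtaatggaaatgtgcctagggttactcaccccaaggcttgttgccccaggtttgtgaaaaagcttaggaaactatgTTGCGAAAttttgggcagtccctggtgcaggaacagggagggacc
The capitals mark the C/EBP octamer, which begins 99 bases before the start of Saa3, 216 before Lcn2, 57 before Ptx3 and 45 before C3.

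In APOE2 most of these transcripts came from a minority of the fibroblasts. Saa3 UMIs were found in 41 of 1236 APOE2 cells, and 1 cell held 1289 of the 5036 UMIs, so the Saa3 ratio rested on few cells. Hp UMIs were found in 74 cells and Lcn2 UMIs in 267 cells. Prg4 was spread more widely, with UMIs in 563 of 1236 cells in APOE2, 70 of 640 in APOE3 and 183 of 968 in APOE4. With every cell thinned to 2000 UMIs, the shares of cells with a Prg4 UMI were 29.2%, 4.53% and 8.57%, beside 0.174%, 0.0605% and 0.0350% in smooth muscle cells, whose median depths before thinning were 14022, 19740 and 15454 UMIs.

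Fibroblasts with 2 or more Prg4 UMIs made up 36.6% of the cells in APOE2 (95% interval 33.9 to 39.3), 4.69% in APOE3 and 10.5% in APOE4 (8.67 to 12.6). They were deeper than the rest in APOE2, with a median of 12637 UMIs, and held 48.1% of all fibroblast UMIs there. They held 95.6% of the Saa3 UMIs, 88.3% of those of Lcn2, 86.3% of those of Spp1, 80.9% of those of Cxcl2 and 77.8% of those of Timp1. Fmod, by contrast, had 8.10% of its UMIs in them. When these cells were left out of both libraries, an alternative chosen after seeing the data, 127 genes were at least 2-fold lower in APOE4 in place of 206, the Saa3 ratio was -6.85 and the Timp1 ratio -1.62, while that of Prg4 itself, used for the choice, was -0.52. Without the cells that held mesothelial markers the ratios of Prg4 and Saa3 were -3.77 and -9.06, as large as with them.

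**Figure D2:**
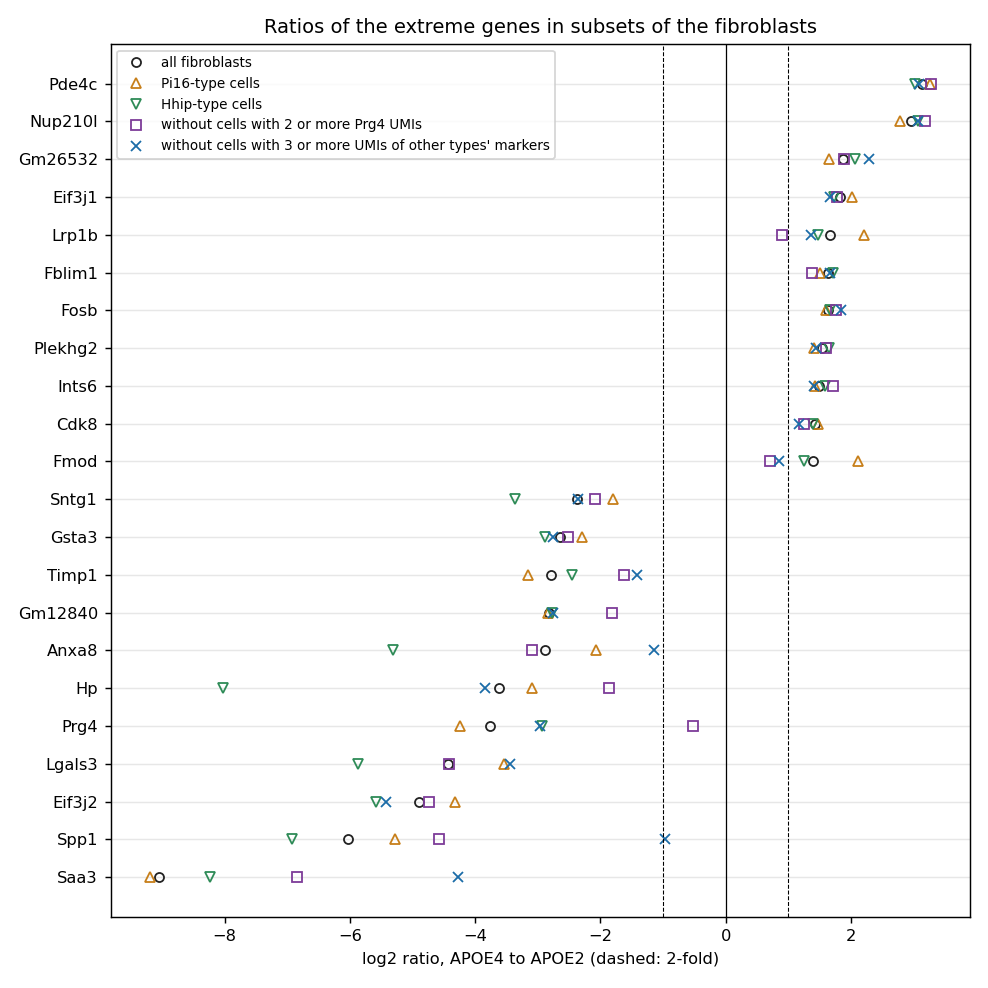
The log2 ratio of APOE4 to APOE2 (horizontal; dashed lines at 2-fold) is drawn for 11 of the 12 highest and 11 of the 12 lowest genes in all fibroblasts, in the Pi16-type and Hhip-type cells, and without cells that held Prg4 or other types' transcripts. The markers of the higher genes lie close together, apart from Lrp1b and Fmod, and those of Saa3, Spp1, Prg4, Hp and Anxa8 are spread over several log2 units on the same side of 0.

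Among the other genes with the lowest ratios, Spp1 (osteopontin, a secreted matrix and cytokine-like protein; chr5:104435118-104441050) had 858 CPM in APOE2, 44.1 in APOE3 and 13.1 in APOE4. Its ratio depended on which cells were counted. UMIs were found in 123 APOE2 cells, 1 of which held 2857 of the 12766, and without cells that held other types' markers the log2 ratio moved from -6.03 to -0.96. Spp1 was at least 2-fold lower in 20 of the 21 alternatives that gave a value. Lgals3 (galectin 3, a sugar-binding lectin) had 152 CPM in APOE2, 23.7 in APOE3 and 7.04 in APOE4. Anxa8 (a calcium-dependent membrane-binding annexin) had 62.5 CPM in APOE2, 9.07 in APOE3 and 8.42 in APOE4.

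Timp1 (an inhibitor of matrix metalloproteinases; chrX:20870166-20874735) had 1159.7 CPM in APOE2, 160.3 in APOE3 and 168 in APOE4, a log2 ratio of -2.79 (95% interval -2.86 to -2.71), and was detected in 913 of 1236 APOE2 and 585 of 968 APOE4 cells. Gsta3 (a glutathione transferase of electrophile detoxification) had 104 CPM in APOE2, 35.7 in APOE3 and 16.6 in APOE4, and its ratio of -2.65 (95% interval -2.90 to -2.41) was between -3.08 and -2.29 under every other way of counting that was tried. Sntg1 (a syntrophin scaffold protein) had 103 CPM in APOE2, 47.9 in APOE3 and 19.9 in APOE4, and the long noncoding RNA Gm12840 had 109 CPM in APOE2, 19.5 in APOE3 and 15.5 in APOE4. For all of these genes APOE2 was the highest of the 3 libraries.

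Eif3j2 and Eif3j1, near-identical genes for a subunit of the translation initiation factor eIF3, went in opposite directions. Eif3j2 (chr18) had 60.7 CPM in APOE2, 2.09 in APOE3 and 2.03 in APOE4, and Eif3j1 (chr2) had 30.9 CPM in APOE2, 93.1 in APOE3 and 109.9 in APOE4. Their log2 ratios were -3.84 and 1.75 in smooth muscle cells and -5.91 and 1.88 in macrophages (323 cells in APOE2 and 105 in APOE4). Both directions were thus seen in those cells too. Reads can be split between such copies, and both values are uncertain as levels of either gene.

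**Figure D3:**
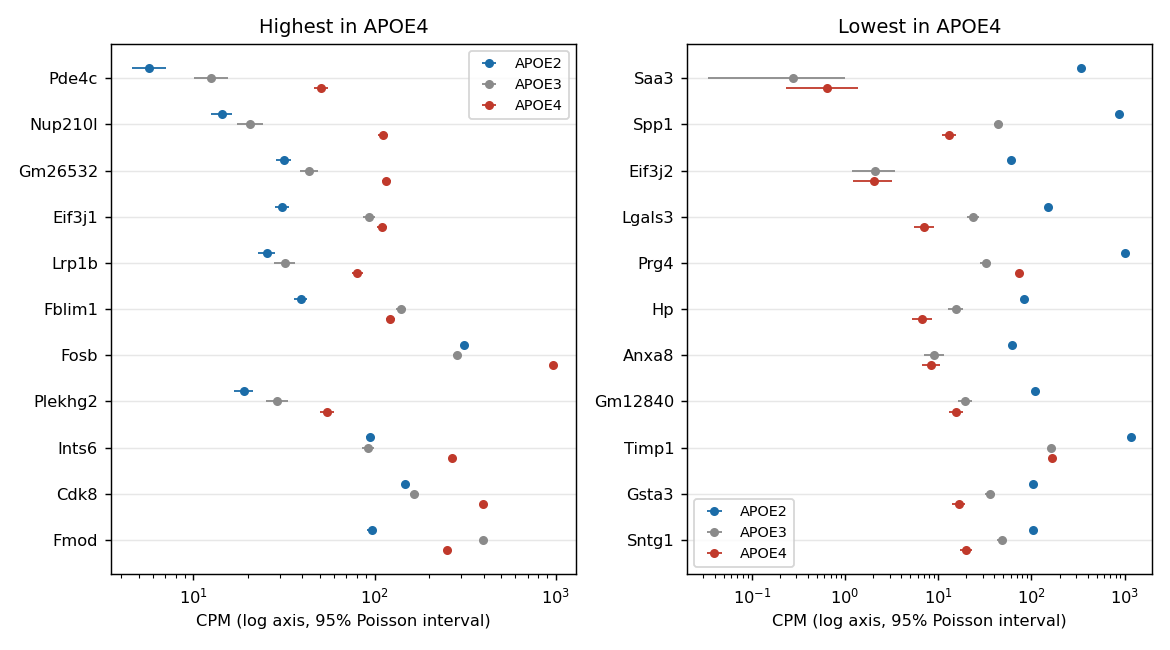
CPM (log axis) of 11 of the 12 genes highest in APOE4 (left) and 11 of the 12 lowest (right) in each library, with 95% Poisson intervals that cover counting error. In the right panel APOE2 is the highest library for every gene, and in the left panel APOE3 lies next to APOE2 for Fosb, Ints6 and Cdk8 and above APOE4 for Fmod and Fblim1.

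Chemokines, which attract leukocytes, and complement components, which mark targets for them, included several lower genes. Of 17 chemokines and cytokines compared, 6 were at least 2-fold lower in APOE4 and 1 was 2-fold higher, beside 2.27% and 1.04% of all genes. Among the lower genes, Cxcl13 and Cxcl14 passed the 10 CPM limit in APOE2 but not in APOE4, so the count partly follows from that limit. The median log2 ratio was -0.24 and changed sign, to 0.10, without cells that held other types' markers. Ccl2, which attracts monocytes, had 167 CPM in APOE2, 32.1 in APOE3 and 58.2 in APOE4. Cxcl2, which attracts neutrophils, had 181 CPM in APOE2, 14.7 in APOE3 and 38.2 in APOE4. Its log2 ratio of -2.25 was 0.40 without cells that held other types' markers, so its direction depended on the cells counted. The ratio of Cxcl5, a related chemokine, went from -2.79 to 0.09 in the same way. Lcn2 was among those markers, and neither ratio changed sign when Lcn2 was not used as a marker. The Cxcl5 ratio was at least 2-fold lower in 20 of the 21 alternatives that gave a value.

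Il33, an alarmin cytokine held in the nuclei of stromal cells, was spread over many cells, with UMIs in 763 of 1236 cells in APOE2 and 446 of 968 in APOE4, and had 275 CPM in APOE2, 173 in APOE3 and 106 in APOE4. Cxcl13, which attracts B cells, was found in 16 APOE2 cells and gave 34.7 CPM there against 0.320 in APOE4. Cxcl14 had 47.2 CPM in APOE2, from 45 cells, and no UMI in APOE4, which makes it at least 148-fold lower when the APOE4 sum is set at 3 UMIs. The 1 higher gene was Il6, an inducer of acute phase proteins, with 14.8 CPM in APOE2, 10.7 in APOE3 and 33.8 in APOE4. Its ratio turned with the kind of fibroblast, being -0.87 in Pi16-type cells and 2.83 in Hhip-type cells.

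Complement genes had a median log2 ratio of -0.08 over 11 compared. At least 2-fold lower were 3, beside 2.27% of all genes, and none was 2-fold higher. C3, the central component, had 1262 CPM in APOE2, 792 in APOE3 and 574 in APOE4, a log2 ratio of -1.13 (95% interval -1.18 to -1.09). C4b, which acts with C2 upstream of C3, had 319 CPM in APOE2, 80.3 in APOE3 and 108 in APOE4, and its ratio of -1.57 (95% interval -1.67 to -1.47) remained past 2-fold under every alternative tried. Clu (clusterin, an inhibitor of the terminal complex) had 365 CPM in APOE2, 59.9 in APOE3 and 75.9 in APOE4, and its log2 ratio of -2.26 was -0.84 without cells that held other types' markers. Clu was at least 2-fold lower in 21 of 22 alternatives. C3 and C4b were also lower in APOE4 in smooth muscle cells, which held little of either, at 6.87 and 4.84 CPM in APOE2 and 0.503 and 0.601 in APOE4.

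Matrix genes were divided by class. The small leucine-rich proteoglycans, which set the spacing and width of collagen fibrils, had a median log2 ratio of 0.62, with 8 of 9 above 0. At least 2-fold higher was 1, beside 1.04% of all genes. That was Fmod (fibromodulin; chr1:134037254-134048277), which had 96.3 CPM in APOE2, 397 in APOE3 and 252 in APOE4, a log2 ratio of 1.39 (95% interval 1.30 to 1.49). Omd (osteomodulin) had 64.5 CPM in APOE2, 156 in APOE3 and 121 in APOE4, and Ogn (osteoglycin) had 1106 CPM in APOE2, 2183 in APOE3 and 1773 in APOE4. Lum (lumican) was the exception, with 1711 CPM in APOE2, 1625 in APOE3 and 1242 in APOE4. The Fmod ratio was 0.71 without the Prg4 cells and 0.85 without cells that held other types' markers, both under 2-fold. In smooth muscle cells Fmod was near 0 in both libraries.

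Fibrillar collagens and their partners showed no common direction. The median log2 ratio was -0.34 over 13 genes, with 5 above 0 and 8 below. Col1a1 and Col1a2, the chains of type I collagen, had log2 ratios of 0.25 and 0.49, whereas Col3a1 and Col5a2 had -0.76 and -0.75. Col8a1, a short-chain collagen of vessel walls, was the only one past 2-fold, with 109.7 CPM in APOE2, 86.7 in APOE3 and 40.3 in APOE4, and its ratio of -1.44 was -0.92 without cells that held other types' markers. None of 15 collagen-modifying enzymes was past 2-fold, with a median of -0.10. Pcolce2 and Loxl1 were highest, at 0.47 and 0.46, and the crosslinking oxidases Loxl2 and Loxl3 lowest, at -0.63 and -0.60.

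The matricellular and adhesive glycoproteins had a median log2 ratio of -0.54, which changed sign without each gene's top 5% of cells. At least 2-fold lower were 4 of 16, beside 2.27% of all genes, and none was 2-fold higher. Fn1 (fibronectin) had 877 CPM in APOE2, 339.5 in APOE3 and 266 in APOE4. Postn (periostin) had 91.6 CPM in APOE2, 24.8 in APOE3 and 20.3 in APOE4. For both APOE2 was the highest library and the other two were close together. Thbs1 (thrombospondin 1) had 50.3 CPM in APOE2, 31.4 in APOE3 and 10.1 in APOE4, and Tnc (tenascin C) had 21.2 CPM in APOE2, 0.419 in APOE3 and 2.99 in APOE4, which again put APOE2 highest. Tnc passed the 10 CPM limit in APOE2 but not in APOE4, so the count of lower genes partly follows from that limit. The Fn1 and Postn transcripts lay in few APOE2 cells, with 74.5% of the Fn1 UMIs and 82.6% of the Postn UMIs in the 5% of cells that were highest for the gene. Without cells that held other types' markers, the ratios of Fn1 and Tnc were -0.51 and -0.35, under 2-fold, and that of Postn was -1.59.

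Genes of activated fibroblasts and myofibroblasts had 4 of 12 at least 2-fold lower and 1 higher, beside 2.27% and 1.04% of all genes. Their median log2 ratio was -0.39 and changed sign, to 0.23, without cells that held other types' markers. Cthrc1 and Actg2 passed the 10 CPM limit in APOE2 but not in APOE4, so the count of lower genes partly follows from that limit. Besides Spp1 and Postn the lower ones were Cthrc1, a secreted collagen triple helix protein, with 27.1 CPM in APOE2, 3.49 in APOE3 and 1.17 in APOE4, and the smooth muscle actin Actg2, with 13.6 CPM in APOE2, 3.21 in APOE3 and 3.09 in APOE4. Pdpn (podoplanin, a membrane mucin of stromal cells) was higher, with 24.0 CPM in APOE2, 66.5 in APOE3 and 49.3 in APOE4. Timp1 was the only one of 17 matrix proteases and inhibitors past 2-fold, and the median of these was -0.09.

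Among 14 laminins, type IV collagens and their partners none was past 2-fold, and the median was -0.32. Lama2 (the laminin alpha 2 chain) was the highest, with 579 CPM in APOE2, 986 in APOE3 and 1141 in APOE4 and a log2 ratio of 0.98 (95% interval 0.94 to 1.02), and was found in 1104 of 1236 cells in APOE2 and 924 of 968 in APOE4. In smooth muscle cells its ratio was -0.51. Col4a5, at 0.50, was next, and Col18a1 and Lamc1 were the lowest, at -0.97 and -0.60. The 16 elastin, microfibril and fibulin genes had a median of -0.01, with Mfap4 and Ltbp4 at 0.81 and 0.65 and Emilin1 and Fbln2 at -0.72 and -0.47.

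**Figure D4:**
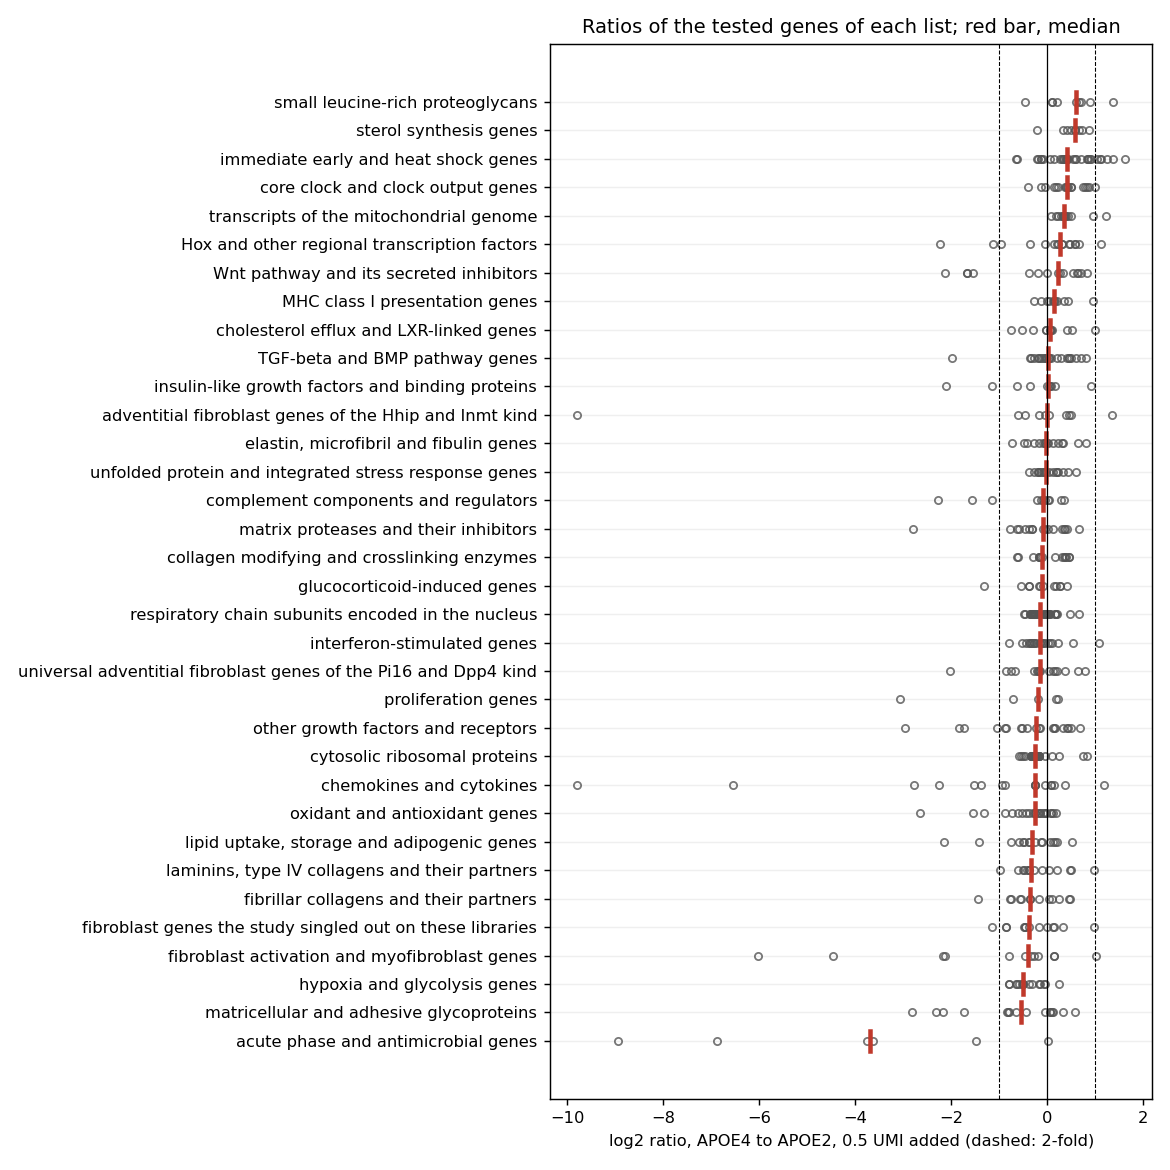
Each circle is a compared gene of the list named on the left, placed by its log2 ratio of APOE4 to APOE2 after adding 0.5 UMIs to both counts. Genes not reported here are not drawn, while the red bar is the median of all compared genes of the list. Acute phase genes lie furthest to the left with a median of -3.69, and the medians of the other lists lie between -0.54 and 0.62.

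The genes with the highest ratios were mostly not matrix genes. Pde4c (a cyclic AMP phosphodiesterase; chr8:70723720-70751186) had 5.71 CPM in APOE2, 12.6 in APOE3 and 50.5 in APOE4, a log2 ratio of 3.14 (95% interval 2.81 to 3.50). Nup210l (a relative of the nuclear pore protein Nup210) had 14.3 CPM in APOE2, 20.5 in APOE3 and 112 in APOE4. The noncoding RNA Gm26532 had 31.5 CPM in APOE2, 43.4 in APOE3 and 116 in APOE4. For these APOE4 was the only high library. Cdk8 (a kinase of the Mediator complex) had 148 CPM in APOE2, 166 in APOE3 and 396 in APOE4. Ints6 (a subunit of the Integrator complex) had 94.9 CPM in APOE2, 92.0 in APOE3 and 267 in APOE4. Plekhg2 (an exchange factor for small GTPases) had 19.0 CPM in APOE2, 28.9 in APOE3 and 54.9 in APOE4. APOE3 was closer to APOE2 than to APOE4 for these too.

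Lrp1b (a large endocytic receptor; chr2:40595246-42653624) had 25.3 CPM in APOE2, 32.0 in APOE3 and 80.4 in APOE4, a log2 ratio of 1.67 (95% interval 1.48 to 1.85), and Fblim1 (a filamin-binding adaptor of cell adhesions) had 39.1 CPM in APOE2, 141 in APOE3 and 122 in APOE4. Of the 12 highest genes, 9 had at least 10 CPM in smooth muscle cells and 6 of these were at least 2-fold higher in APOE4 there as well, where 1.5% of 8176 genes were. In macrophages 10 could be compared and 7 were at least 2-fold higher, where 4.01% of 7699 genes were. Lrp1b and Fmod were under 10 CPM in smooth muscle cells, with Lrp1b at 4.18 CPM in APOE2 and 3.22 in APOE4 there. Without the Prg4 cells the Lrp1b ratio in fibroblasts was 0.90, under 2-fold. The cell classes came from the same pooled libraries and are not independent of each other.

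Immediate early genes, which cells transcribe within minutes of a stimulus and also during tissue dissociation, included several of the genes higher in APOE4. Of 32 immediate early and heat shock genes compared, 25 were above 0, 6 were at least 2-fold higher (1.04% of all genes) and none was 2-fold lower, with a median log2 ratio of 0.43. Fosb had 314 CPM in APOE2, 284 in APOE3 and 973 in APOE4, a log2 ratio of 1.63 (95% interval 1.58 to 1.68), and Fos had 1112 CPM in APOE2, 1209 in APOE3 and 2893 in APOE4, a log2 ratio of 1.38 (95% interval 1.35 to 1.41). Both encode parts of the AP-1 transcription factor. Zfp36 (which speeds the decay of cytokine mRNA) had 133 CPM in APOE2, 157 in APOE3 and 319 in APOE4. Socs3 (a feedback inhibitor of cytokine signalling) had 58.7 CPM in APOE2, 74.3 in APOE3 and 129.5 in APOE4. APOE3 lay nearer to APOE2 than to APOE4 for each of these. Gadd45b (a stress-induced protein) had 287 CPM in APOE2, 279.8 in APOE3 and 624 in APOE4, and Egr1 (a zinc finger transcription factor) had 1194 CPM in APOE2, 1167 in APOE3 and 2461 in APOE4. For these 6 genes APOE4 was the highest of the 3 libraries.

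Heat shock genes were mixed, with Hsph1 at 0.61, Hspa1a at 0.41, Dnajb1 at -0.21 and Hspb1 at -0.61. In smooth muscle cells the list had a median of 0.73 with 12 of 33 genes at least 2-fold higher, beside 1.5% of all genes there. In macrophages its median was 0.17 with 2 of 33, beside 4.01% of all genes there. The share of mitochondrial UMIs was higher in APOE4 as well, as given with the mitochondrial genes, and its part in these values was not tested. Upstream bases of Zfp36 and Fosb are shown because these were among the highest of the group, with the serum response factor box of Zfp36 and the NF-kB decamer of Fosb in capitals.
Zfp36, chr7:28379229-28379478 on the minus strand: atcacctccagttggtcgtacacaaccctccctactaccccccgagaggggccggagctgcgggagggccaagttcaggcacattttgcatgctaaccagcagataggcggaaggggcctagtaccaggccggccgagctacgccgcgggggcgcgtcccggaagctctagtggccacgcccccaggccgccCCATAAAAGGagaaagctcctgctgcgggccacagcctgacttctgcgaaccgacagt
Fosb, chr7:19310046-19310295 on the minus strand: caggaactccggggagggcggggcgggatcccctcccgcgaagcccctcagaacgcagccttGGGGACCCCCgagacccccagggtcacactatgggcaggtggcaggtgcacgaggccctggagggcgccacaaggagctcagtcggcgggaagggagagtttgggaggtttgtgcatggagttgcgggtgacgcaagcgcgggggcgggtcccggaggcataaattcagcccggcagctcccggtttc
Windows were searched for 27 of the 33 genes listed, and the others, Egr1 among them, were not searched. Of these 27, 4 held the NF-kB decamer (Fos, Fosb, Fosl2 and Ier3) and 2 the serum response factor box (Egr2 and Zfp36). The cyclic AMP response element was held by 2 (Btg2 and Dusp1), the C/EBP octamer by 1 and the AP-1 heptamer by none. The shares of all windows searched were 3.9%, 1.47%, 1.55%, 9.56% and 6.75%, in the same order.

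Sterol synthesis genes, which are switched on when a cell is short of cholesterol, had a median log2 ratio of 0.59 over 11 genes compared, with 9 above 0 and none 2-fold lower. Srebf2, the transcription factor that drives the pathway, had 24.1 CPM in APOE2, 28.9 in APOE3 and 44.2 in APOE4. Cyp51 and Fdps, enzymes of the pathway, had log2 ratios of 0.68 and 0.59, whereas Mvk (mevalonate kinase) had -0.20. Most of these genes lay between 10 and 50 CPM. The list's median was 0.05 in smooth muscle cells and 1.06 in macrophages.

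Cholesterol efflux and liver X receptor-linked genes had a median of 0.06 over 12, with Pltp (phospholipid transfer protein) at least 2-fold higher, from 126 CPM in APOE2 to 254 in APOE4, and Nr1h3 (the liver X receptor alpha) and Abca1 (the cholesterol exporter) at -0.74 and -0.51. The Pltp ratio of 1.02 sat at the 2-fold line and came under it in several alternatives, at 0.73 without cells that held other types' markers. Genes of lipid uptake and storage had a median of -0.31 over 16. None was 2-fold higher and 2 were at least 2-fold lower, beside 2.27% of all genes. Fabp4, a fatty acid binding protein of fat and endothelial cells, had 76.0 CPM in APOE2, 16.9 in APOE3 and 17.1 in APOE4, and Angptl4, an inhibitor of lipoprotein lipase, had 114 CPM in APOE2, 85.4 in APOE3 and 42.5 in APOE4. Fabp4 was also lower in smooth muscle cells, with a log2 ratio of -1.45.

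All 13 transcripts of the mitochondrial genome were above 0, with a median log2 ratio of 0.36, and mt-Nd3, a complex I subunit, was past 2-fold with 116 CPM in APOE2, 228 in APOE3 and 273 in APOE4. Mitochondrial UMIs took up 1.43% of the median fibroblast of APOE2, 1.18% of that of APOE3 and 1.75% of that of APOE4. Smooth muscle cells had a like median, 0.31. The 36 respiratory chain subunits encoded in the nucleus had a median of -0.14, with Ndufa1 and Atp5k highest, at 0.66 and 0.48, and Cox5a and Ndufa9 lowest, at -0.47 and -0.46.

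Glycolysis and hypoxia genes were nearly all below 0, in 14 of 15 with a median of -0.49, but none was past 2-fold. Hif1a and Eno1 were the lowest, at -0.78 and -0.79, followed by Ldha at -0.64 and Pgk1 at -0.61, and the exception was Hk2, at 0.26, next to Bnip3 at -0.04. In smooth muscle cells the median was -0.02. Cytosolic ribosomal protein genes had a median of -0.24 with 24 of 28 below 0, with Rpl5 and Rps2 lowest, at -0.57 and -0.54, and Rps29 and Rps27 highest, at 0.85 and 0.75.

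Of 23 oxidant and antioxidant genes, with a median of -0.25, 19 were below 0 and 3 at least 2-fold lower, beside 2.27% of all genes. Besides Gsta3 these were Gpx3, a secreted glutathione peroxidase, with 500.1 CPM in APOE2, 390.5 in APOE3 and 171 in APOE4, and Mt2, a metal-binding metallothionein, with 627 CPM in APOE2, 158 in APOE3 and 254 in APOE4. The Gpx3 ratio of -1.55 (95% interval -1.63 to -1.47) came from UMIs in 856 APOE2 and 375 APOE4 cells and remained past 2-fold under every alternative. The Mt2 ratio of -1.31 was -0.24 without the Prg4 cells and -0.78 without cells that held other types' markers.

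Secreted regulators of Wnt signalling had a split pattern. Of 15 Wnt pathway genes 4 were at least 2-fold lower in APOE4, beside 2.27% of all genes, and none 2-fold higher. The median was nevertheless 0.22 and 8 were above 0. Sfrp1, a secreted antagonist, had 212 CPM in APOE2, 235 in APOE3 and 66.8 in APOE4, a log2 ratio of -1.66 (95% interval -1.79 to -1.54) that stayed between -2.20 and -1.52 under every alternative. Frzb, a further antagonist, had 81.9 CPM in APOE2, 32.4 in APOE3 and 25.8 in APOE4. APOE4 was the lowest library for both, and APOE3 was high for Sfrp1 and low for Frzb. Rspo1, which amplifies Wnt signals, had 16.5 CPM in APOE2, 12.8 in APOE3 and 5.65 in APOE4. Wif1, a Wnt-binding inhibitor, had 13.2 CPM in APOE2, 73.0 in APOE3 and 2.99 in APOE4. Rspo1 and Wif1 passed the 10 CPM limit in APOE2 but not in APOE4, so the count of lower genes partly follows from that limit. Without cells that held other types' markers the Wif1 ratio of -2.15 turned to 0.40, and that of Frzb, -1.67, was -0.61. Frzb was at least 2-fold lower in 21 of 22 alternatives. The Wif1 ratio did not change sign when Lcn2 was not used as a marker. Sfrp2 and Wnt5a went the other way, at 0.83 and 0.71, short of 2-fold.

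None of the TGF-beta and BMP genes was 2-fold higher, and their median was 0.03. Of 24 compared, 2 were at least 2-fold lower, beside 2.27% of all genes. Inhba (the activin A subunit) was among them, with 124 CPM in APOE2, 25.7 in APOE3 and 31.7 in APOE4. Its log2 ratio of -1.97 was -0.34, under 2-fold, without cells that held other types' markers. Tgfb3 was the highest, at 0.82. Insulin-like growth factor genes had 2 of 10 at least 2-fold lower, beside 2.27% of all genes, around a median of 0.02. The binding protein Igfbp3 had 38.9 CPM in APOE2, 26.1 in APOE3 and 9.06 in APOE4. The protease Pappa had 20.6 CPM in APOE2, 13.8 in APOE3 and 9.28 in APOE4. Igfbp3 and Pappa both passed the 10 CPM limit in APOE2 but not in APOE4, so their count partly follows from that limit.

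Of 21 other growth factors and receptors, 5 were at least 2-fold lower, beside 2.27% of all genes, and none higher, with a median of -0.21. Hgf, Pdgfc and Ptn passed the 10 CPM limit in APOE2 but not in APOE4, so this count partly follows from that limit. Hgf (hepatocyte growth factor) had 20.5 CPM in APOE2, 4.19 in APOE3 and 6.18 in APOE4. Pdgfc (a ligand of the receptor Pdgfra) had 23.3 CPM in APOE2, 9.91 in APOE3 and 6.50 in APOE4. APOE2 was the highest library for both. Fgf2 (basic fibroblast growth factor) had 58.0 CPM in APOE2, 43.4 in APOE3 and 28.0 in APOE4, and Ptn (pleiotrophin) had 15.3 CPM in APOE2, 2.79 in APOE3 and 1.92 in APOE4. The Ptn UMIs lay in 42 APOE2 and 4 APOE4 cells. Fgf2 was close to the 2-fold line, at -1.05, and -0.69 without cells that held other types' markers, and the ratios of Hgf and Pdgfc remained past 2-fold under the alternatives that gave them a value.

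Hox and other regional transcription factors, which mark where along the body a fibroblast lies, had a median of 0.27 over 16. Hoxc6 was at least 2-fold higher, beside 1.04% of all genes, and Tbx20 and Tcf21 at least 2-fold lower, beside 2.27%. Hoxc6 passed the 10 CPM limit in APOE4 but not in APOE2, and Tbx20 in APOE2 but not in APOE4. These counts partly follow from that limit. Hoxc6 had 4.98 CPM in APOE2, 13.5 in APOE3 and 11.0 in APOE4. Tbx20 had 16.7 CPM in APOE2, 1.26 in APOE3 and 3.52 in APOE4, which put APOE2 well above the others. Tcf21 had 31.1 CPM in APOE2, 41.0 in APOE3 and 14.2 in APOE4, and there APOE4 alone was low. Without cells that held other types' markers the list's median was -0.02 and the Hoxc6 ratio 0.93. Clock genes had a median of 0.42 with 14 of 17 above 0 and 1 at least 2-fold higher, beside 1.04% of all genes. That was Nr1d1, a repressor of the clock, with 61.0 CPM in APOE2, 99.5 in APOE3 and 123 in APOE4. Dbp and Bhlhe40 had log2 ratios of 0.83 and 0.88, and Arntl, the positive arm, -0.38. Nr1d1 had the same ratio of 1.01 in smooth muscle cells, and 0.91 in fibroblasts without cells that held other types' markers.

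Interferon-stimulated genes had a median of -0.14 with 15 of 21 below 0, beside -0.07 and 5328 of 9063 for all genes. At least 2-fold higher was 1, the transcription factor Irf1, with 113 CPM in APOE2, 157 in APOE3 and 241 in APOE4. MHC class I presentation genes had a median of 0.15 over 11 and none past 2-fold, with H2-Q4 and H2-T23 at 0.97 and 0.44 and Tap1 and B2m at -0.26 and -0.11. Glucocorticoid-induced genes had Mt2 alone past 2-fold, of 12, and a median of -0.11. The 17 unfolded protein and integrated stress response genes had a median of -0.02, with Creld2 and Phgdh highest, at 0.62 and 0.44, and Asns and Ero1l lowest, at -0.38 and -0.28. Of 5 proliferation genes compared, with a median of -0.19, Ube2c was 2-fold lower, from UMIs in 8 APOE2 and 6 APOE4 cells, and its direction turned in several alternatives, to 1.30 without cells that held other types' markers, as did the list's median, to 0.0947.

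Fibroblasts of the aortic adventitia come in kinds, a universal kind with Pi16 and Dpp4 and a kind with Hhip and Inmt. When each cell was assigned by whether its UMIs of Pi16, Dpp4, Sema3c, Cd55 and Anxa3 outnumbered those of Hhip, Inmt, Col15a1, Gdf10 and Smoc2, 36.7% of the cells were Pi16-type in APOE2 (95% interval 34.0 to 39.5), 29.4% in APOE3 and 42.3% in APOE4 (39.1 to 45.4). Hhip-type cells made up 59.2% (56.4 to 62.0), 69.4% and 52.9% (49.7 to 56.1). These are ranges of a score and not separate types, with 142 APOE2 and 110 APOE4 cells within 1 UMI of the line, and Pi16 and Hhip themselves differed between the libraries. The Pi16 genes had a median log2 ratio of -0.15 with Uchl1, a ubiquitin hydrolase, at least 2-fold lower with 57.1 CPM in APOE2, 31.8 in APOE3 and 14.0 in APOE4 (a ratio of -2.03, or -0.89 without cells that held other types' markers), and Pi16 (peptidase inhibitor 16) had 1049.8 CPM in APOE2, 2104 in APOE3 and 1820.1 in APOE4. The Hhip genes had a median of 0.0019, with Cxcl14 at least 2-fold lower and Hhip (a decoy for hedgehog ligands) 2-fold higher, with 41.5 CPM in APOE2, 122 in APOE3 and 107 in APOE4.

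Most of the extreme genes kept their direction within each kind. Saa3 had log2 ratios of -9.20 in Pi16-type and -8.23 in Hhip-type cells, Prg4 -4.25 and -2.94, Timp1 -3.16 and -2.45, and Fosb 1.60 and 1.67. Fmod had 2.12 and 1.26, and Lrp1b 2.21 and 1.48. Hp had -3.09 and -8.03, and Fn1 -1.10 and -2.93. The difference between the kinds was not tested.

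The 13 fibroblast genes compared here were singled out by the study on these same libraries, which makes them no independent evidence of a direction. They had a median log2 ratio of -0.38, with C3 at least 2-fold lower and none 2-fold higher. The study reported them as high in different genotypes, so the median cannot be read as a direction. For APOE2 it named C3, Ly6a, Fgf7, Plin2, Medag and Fbln1, and all of these were below 0. For APOE4 it named Lama2 and Mfap5, which were above 0, and S100a4, which was below 0. Lum, Igfbp6 and Fap were named for APOE3. Pdgfra is among the 13 genes as a marker of fibroblasts. Dcn, which the study reported high in APOE4, is not, and the cell rule uses it. The study's fibroblasts also included clusters with smooth muscle genes, whereas the rule used here limits Acta2 and Tagln. Lama2 was the highest at 0.98, followed by Pdgfra (the receptor that marks fibroblasts) at 0.34, and the microfibril gene Mfap5 and the membrane protease Fap were at 0.14 and 0.14. Igfbp6 was at -0.001, with an interval from -0.05 to 0.05. Ly6a (a stem and stromal cell antigen) had 1520.1 CPM in APOE2, 975 in APOE3 and 839 in APOE4, Fgf7 (a growth factor for epithelia) 58.0 CPM in APOE2, 36.4 in APOE3 and 32.3 in APOE4, and Plin2 (a lipid droplet coat protein) 41.6 CPM in APOE2, 35.5 in APOE3 and 29.9 in APOE4. Log2 ratios of Lum, S100a4, Medag and Fbln1 were -0.46, -0.46, -0.38 and -0.16. The study reported S100a4 as high in APOE4 fibroblastic cells, with APOE3 as its comparison. Within an adventitial fibroblast cluster it also described raised S100a4 for APOE4 cells alone. In another such cluster it described many APOE4 cells high in S100a4, Mfap5 and Lama2. The study's clusters were not rebuilt here, so the ratio above is not a value for either cluster. Without cells that held other types' markers, S100a4 changed sign to 0.25, Lum lay at 0.010 and Fap at -0.31. The S100a4 ratio was 0.10 in Pi16-type and -1.11 in Hhip-type cells.

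Smooth muscle cells of the same libraries, 5715 in APOE4 and 6883 in APOE2, show where the fibroblast differences were also seen in another cell class. Of the 12 lowest genes in fibroblasts, 6 had at least 10 CPM in smooth muscle cells and 3 of these, Spp1, Eif3j2 and Gm12840, were at least 2-fold lower there, where 0.66% of 8176 genes were. The levels were 62.4 and 0.168 CPM for Spp1 in APOE2 and APOE4 smooth muscle cells. Lgals3 and Timp1 had log2 ratios of -0.38 and -0.94. In macrophages 4 of the 12 could be compared and 3 were at least 2-fold lower, where 3.83% of 7699 genes were.

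**Figure D5:**
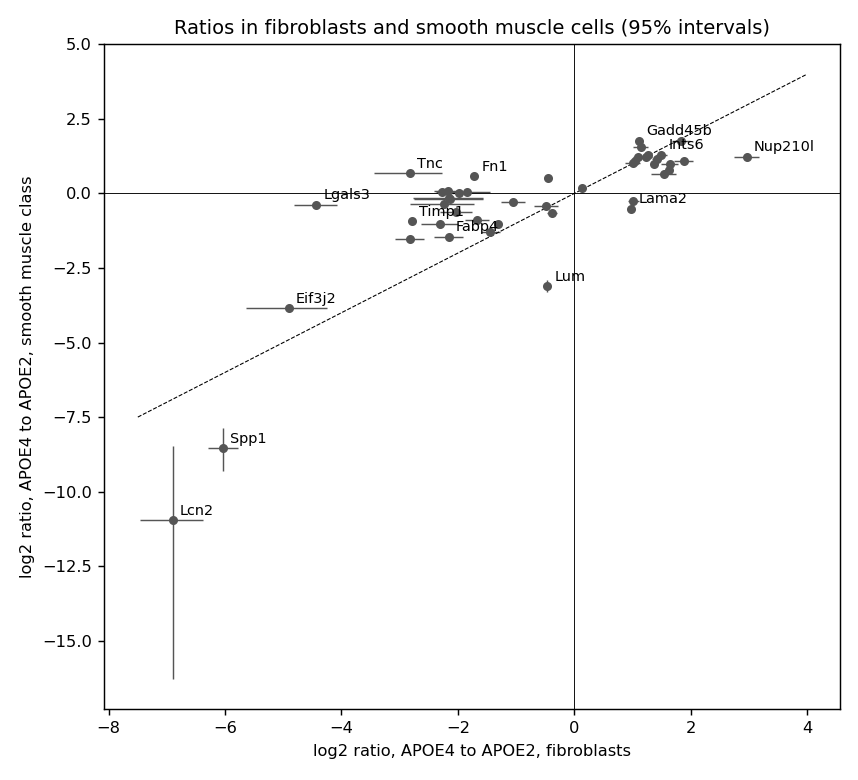
Log2 ratios of APOE4 to APOE2 in fibroblasts (horizontal) and smooth muscle cells (vertical) with 95% counting intervals, for 45 named genes at 10 CPM or more in smooth muscle cells, and the dashed line marks equal ratios. Spp1, Lcn2 and Eif3j2 are low in both classes, Ints6 and Nup210l are high in both, and Fn1 and Tnc lie below 0 in fibroblasts and above 0 in smooth muscle cells.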

How the data were processed

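The authors deposited raw UMI counts per gene and barcode for 3 10x libraries, made with Cell Ranger (7.0.1 in the matrix header) on mm10, with 32285 features. UMI counts were summed over the fibroblasts of each library with no count model, since each genotype had 1 library. Genes were compared at 10 CPM or more in 1 of the 2 libraries with 50 UMIs or more in both together. Intervals are exact, Poisson for CPM, conditional binomial for ratios and Clopper-Pearson for shares. List medians used 0.5 UMIs added to each count. Smooth muscle cells had Acta2 plus Tagln at 2% or more and Dcn under 0.1%, and macrophages 10 or more C1q UMIs. Scrublet (scanpy 1.11.5) marked under 0.5% of the cells and so did not work as a caller. No doublets were removed, and leaving out the 8% of cells with the highest score was an alternative. The 5 duplicated symbols were left out, and gene coordinates are from GENCODE vM21.

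Genes were named by rule: the 12 highest and 12 lowest at 50 CPM or more, without the genes of the cell rule, other types' markers, immunoglobulin and haemoglobin genes; in each of 34 lists the members past 2-fold or, with none, the 2 highest and 2 lowest; and 13 genes the study named. Some genes that the rule names, and which enter the counts and medians, are not reported here. Other members given, and Apoe and Cxcl13, were chosen after their values were seen, or describe a group. The members and lists were chosen with earlier results of these data known. Cell filters, the fibroblast limits, depth, scaling, subsets and level filters were varied, and 4 alternatives (without Prg4 cells, without mesothelial-marker cells, without each gene's top 5% of cells, and Lcn2 not used as a marker) were added after seeing the data. On simulated counts for 9063 genes, 95.6% of intervals held the true ratio. This checks the calculation only, since the ratio intervals treat every UMI as independent and leave out the gathering of UMIs in few cells. Python 3.11.15, numpy 2.4.6, scipy 1.17.1, pandas 2.3.3 and matplotlib 3.10.9 were used.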

Additional observations from a re-analysis of the deposited data

Results flagged for a closer look

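In 3 genes that were at least 2-fold lower in APOE4 fibroblasts the log2 ratio of APOE4 to APOE2 had the opposite sign in smooth muscle cells of the same libraries, and the difference between the cell classes was not tested. Fn1 had -1.72 in fibroblasts and 0.58 in smooth muscle cells, and Tnc had -2.83 and 0.68. Over the alternatives the fibroblast ratios of Fn1 and Tnc came up to -0.50 and -0.35, under 2-fold. Most Fn1 UMIs of APOE2 fibroblasts lay in few cells. Ptn had -2.99 and 1.60, but was under 2 CPM in smooth muscle cells of either library. Fn1 had 289 CPM in APOE2 smooth muscle cells and 432 in APOE4.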

How the results depend on the processing

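No paired analysis was possible because each genotype had 1 library. The 94 genes higher in APOE4 and the 206 lower changed most with the level filter, to 35 and 78 at 50 CPM or more and to 915 and 1005 with no minimum CPM and 10 UMIs. The higher count was 183 in Pi16-type cells. The lower count was 116 without cells that held other types' markers, 133 when Lcn2 was not used as a marker, and 127 without cells with 2 or more Prg4 UMIs. Without each gene's top 5% of cells 59 of the 94 higher and 86 of the 206 lower genes were still compared and past 2-fold. Some of the others, such as Saa3, kept no UMIs there and could not be compared, so they did not all fall under 2-fold. The log2 ratio of the share of fibroblasts, 0.11, was 0.32 with Dcn at 1% or more. Lists with a median at or past 0.5 in size numbered 4, and 7 without the highest Scrublet scores and 2 with the mean of each cell's CPM. Of 89 genes followed, these turned among the genes past 2-fold: Ube2c (0.99 with Acta2 plus Tagln under 0.3%, 1.30 without other types' markers, 0.59 with Lcn2 not used, 2.39 without Prg4 cells), Cxcl2 (0.40), Cxcl5 (0.087) and Wif1 (0.40) without other types' markers, and Il6 (-0.87 in Pi16-type cells). Ube2c was the only one of these to turn with Lcn2 not used. Among genes under 2-fold, S100a4, Lum, Fap and Igfbp6 changed sign in at least 1 alternative. Without other types' markers the medians of the activation (0.23), chemokine (0.10), proliferation (0.095) and Hox (-0.02) lists changed sign, and the adhesive matrix median was 0.034 without each gene's top 5% of cells. Several other lists with medians nearer to 0 also changed sign. Ratios of C3, Ccl2, Col8a1, Egr1, Frzb, Gadd45b, Hhip, Hoxc6, Il33, Inhba, Nr1d1, Pappa, Pdpn, Rspo1, Socs3, Tcf21, Uchl1, Actg2, Angptl4, Irf1 and Zfp36 came under 2-fold in at least 1 alternative, at -0.69 without Prg4 cells for C3. The median gene at 50 CPM or more had a log2 ratio of -0.05, and centring on it raises every log2 ratio by the size of that value. Lama2 was past 2-fold in 3 of 22 alternatives, at most at 1.03 with this centring. The cause of these changes was not tested. Depth limits genes under 10 CPM, and mice of a pool cannot be told apart.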
